A study of Mus musculus with 2 samples.

Results

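The transforming growth factor beta (TGF-β) genes described here were 3 ligands (*Tgfb1*, *Tgfb2* and *Tgfb3*), 3 latent TGF-β binding proteins (*Ltbp1*, *Ltbp2* and *Ltbp4*), 3 receptors (*Tgfbr1*, *Tgfbr2* and *Tgfbr3*) and the TGF-β-induced matrix protein *Tgfbi*. They were taken by symbol, as 10 of the 32287 features counted in 2 libraries of single cells from injured mouse hind limb muscle. Male *S100GFP*-tg mice, a Schwann cell (SC) reporter line on the C57BL/6J background, were 10 to 16 weeks old, underwent peroneal nerve crush and were sampled 7 days post injury (7 dpi). The tibialis anterior (TA) received 2 μg of antibody in 10 μL at injury and every 2 days thereafter. One group was given a neutralizing antibody against osteopontin, the secreted product of *Spp1* (SPP1-nAb), and the control group goat anti-mouse IgG, so that injury, reporter and injections were common to both. The labels name TA and gastrocnemius muscle, mice were pooled, and the number of mice per pool is not stated. The titles of both samples name the GFP+ cells, whereas the sorting protocol names GFP+ and GFP- live cells. The comparison asked how the sources and receivers of TGF-β stood in denervated muscle when osteopontin was neutralized.

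TGF-β ligands are secreted as latent complexes. The propeptide holds the mature ligand in check, a latent TGF-β binding protein ties the complex to matrix fibers, and integrins or proteases release it. The free ligand is bound by the type II receptor, which recruits and phosphorylates the type I receptor, and Smad proteins carry the signal to the nucleus. In muscle the pathway is best known for driving matrix production by fibro-adipogenic progenitors and for restraining the differentiation of myoblasts.

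The IgG library held 97607674 unique molecular identifiers (UMIs) on 23779 barcodes and the SPP1-nAb library 127719916 on 25069. After a filter that required over 200 genes and under 10% mitochondrial UMIs, 23385 and 24758 barcodes were kept, with medians of 3822 and 4756 UMIs, and 163 barcode sequences occurred in both libraries. A cell was given a class when at least 3 of 6 marker genes had a UMI, and 2.30% and 2.07% of the cells, which passed the gates of different lineages or tied, were set aside as mixed. No class was given to 25.6% and 23.8%. The 11 classes compared held at least 50 cells in each library and are named by their gates, so that a Schwann-like cell is one that passed the gate of Schwann cell markers. *Sox10* led the Schwann-like class, *Kera* the tenocyte-like and *Emcn* the endothelial-like, when genes were ordered by their fold over the other cells. These genes were gate markers, so their lead followed from the gates. Among genes that the gates did not use, *Klk9*, *Chad* and *Sox18* came first in the same classes. Fibroblast-like cells were 10.6% of the IgG cells and 4.18% of the SPP1-nAb cells, and mononuclear phagocytes 46.7% and 55.8%. The level of a gene in a class was its share of all UMIs of those cells, scaled to 1000000 (CPM), with an exact Poisson 95% interval in brackets. There was 1 library per condition, so no test between conditions was possible. Intervals cover counting error only and leave out the variation between cells, mice and preparations.

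*Tgfb1* was found in all 11 classes and was highest in mononuclear phagocytes, whereas *Tgfb2* was near 0 in phagocytes and dendritic cells. The 250 bases before their start sites are shown, since these ligands differed most plainly in where they were found. The sequences are from RefSeq (GRCm38.p6, given 5′ to 3′ on the strand of the gene), and capitals mark GC boxes, GGGCGG or CCGCCC on the other strand.
*Tgfb1*, chr7:25686752-25687001, plus strand: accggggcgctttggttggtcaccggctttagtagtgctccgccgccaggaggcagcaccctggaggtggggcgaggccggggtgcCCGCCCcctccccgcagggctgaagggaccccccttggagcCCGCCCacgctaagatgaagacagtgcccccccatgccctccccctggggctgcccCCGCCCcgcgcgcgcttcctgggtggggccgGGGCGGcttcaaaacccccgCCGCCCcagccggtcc
*Tgfb2*, chr1:186705990-186706239, minus strand: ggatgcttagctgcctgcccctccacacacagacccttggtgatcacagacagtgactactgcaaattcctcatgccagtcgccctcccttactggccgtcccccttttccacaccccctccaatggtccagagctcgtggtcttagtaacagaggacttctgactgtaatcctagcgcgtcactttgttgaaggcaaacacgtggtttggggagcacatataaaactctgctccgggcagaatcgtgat
The window of *Tgfb1* was 75.2% G or C and held 5 GC boxes, whereas that of *Tgfb2* was 53.6% G or C and held 0. Of 32851 such windows, 32.7% held a GC box. Neither window held TGACGTCA (the cyclic AMP response element, in 1.55% of windows) or TGANTCA (the AP-1 element, in 6.75%), searched on both strands. The window of *Tgfbr2*, a gene with 154 and 110 CPM in phagocytes, held 0 GC boxes. The 3 windows of *Ltbp4*, with 2 and 1.78 CPM there, held 3, 5 and 7. That of *Ltbp2*, with 0.121 and 0.251 CPM in phagocytes, held 2. Other genes went the way of the ligands. The window of *Tgfbi*, with 320 CPM in phagocytes of both libraries, held 1. Those of *Ltbp1*, with 5.04 and 3.61 CPM, held 0 and 0. Those of *Tgfbr1*, with 91.2 and 103 CPM, were split, with 2 and 0. These are matches of letters, and binding was not measured. Their part in where the genes were found was not tested.

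*Tgfb1* (chr7:25386390-25404506, GRCm39), the most widely made ligand, had its highest level in mononuclear phagocytes, with 246 CPM [241, 250] for IgG and 263 CPM [260, 267] for SPP1-nAb. Type 2 conventional dendritic cells (cDC2) followed with 202 and 224 CPM, and neutrophils with 156 and 219 CPM. The ranges of cDC2 and neutrophils over the libraries overlapped, while that of phagocytes lay above both. Fibroblast-like cells had the lowest *Tgfb1* level of the 11 classes, 31.3 CPM [28.4, 34.4] and 44.6 CPM [40.2, 49.5]. Schwann-like cells lay between, at 101 CPM [83.9, 122] and 108 CPM [91.8, 127]. Phagocytes held 67.7% of all *Tgfb1* UMIs in the IgG library and 73.4% in the SPP1-nAb library. They also held 49397740 of the 97022487 kept UMIs of all genes in IgG, and 79777498 of 127244621 in SPP1-nAb. Cells with at least 2000 UMIs were thinned to 2000, and cells with fewer were left out (645 and 432 phagocytes, 140 and 37 fibroblast-like cells). After thinning, 37.1% and 39.6% of phagocytes had a *Tgfb1* UMI, against 6.43% and 5.81% of fibroblast-like cells.

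*Tgfb2* (chr1:186354985-186438294), the ligand that depends most on the type III receptor, was found mainly outside the leukocytes. Its level was 178 CPM [171, 185] and 206 CPM [197, 217] in fibroblast-like cells, 198 and 157 CPM in myogenic cells, and 150 and 170 CPM in tenocyte-like cells. These ranges overlapped from one class to the next. Schwann-like cells had 144 CPM [123, 168] and 121 CPM [103, 140], which were the highest levels outside mesenchymal and myogenic cells. Mononuclear phagocytes had 1.74 CPM [1.39, 2.15] and 1.87 CPM [1.58, 2.19], and cDC2 2.14 and 2.13 CPM. At 2000 UMIs per cell, a *Tgfb2* UMI was seen in 24.1% and 26.4% of fibroblast-like cells but in 0.282% and 0.306% of phagocytes. The share in cDC2 was as low, at 0% and 0.417%. Medians before thinning were 4190 and 5385 UMIs in phagocytes and 5032 and 7914 in fibroblast-like cells. T or NK cells, 26 and 37 of them, had 0 *Tgfb2* UMIs, which allows up to 36.0 and 17.5 CPM.

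*Tgfb3* (chr12:86102756-86126301), the ligand associated with tendon and palate development, was found mainly in mesenchymal and myogenic cells. Tenocyte-like cells had 79.8 CPM [67.6, 93.6] and 75.4 CPM [61.3, 91.8], mural cells 40.6 and 79.6 CPM, and fibroblast-like cells 45.8 and 60.5 CPM. The range of mural cells overlapped both neighbors in this order, and rested on 12 and 19 UMIs. Schwann-like cells had only 10 and 8 *Tgfb3* UMIs, for 8.75 and 5.74 CPM.

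**Figure D1:**
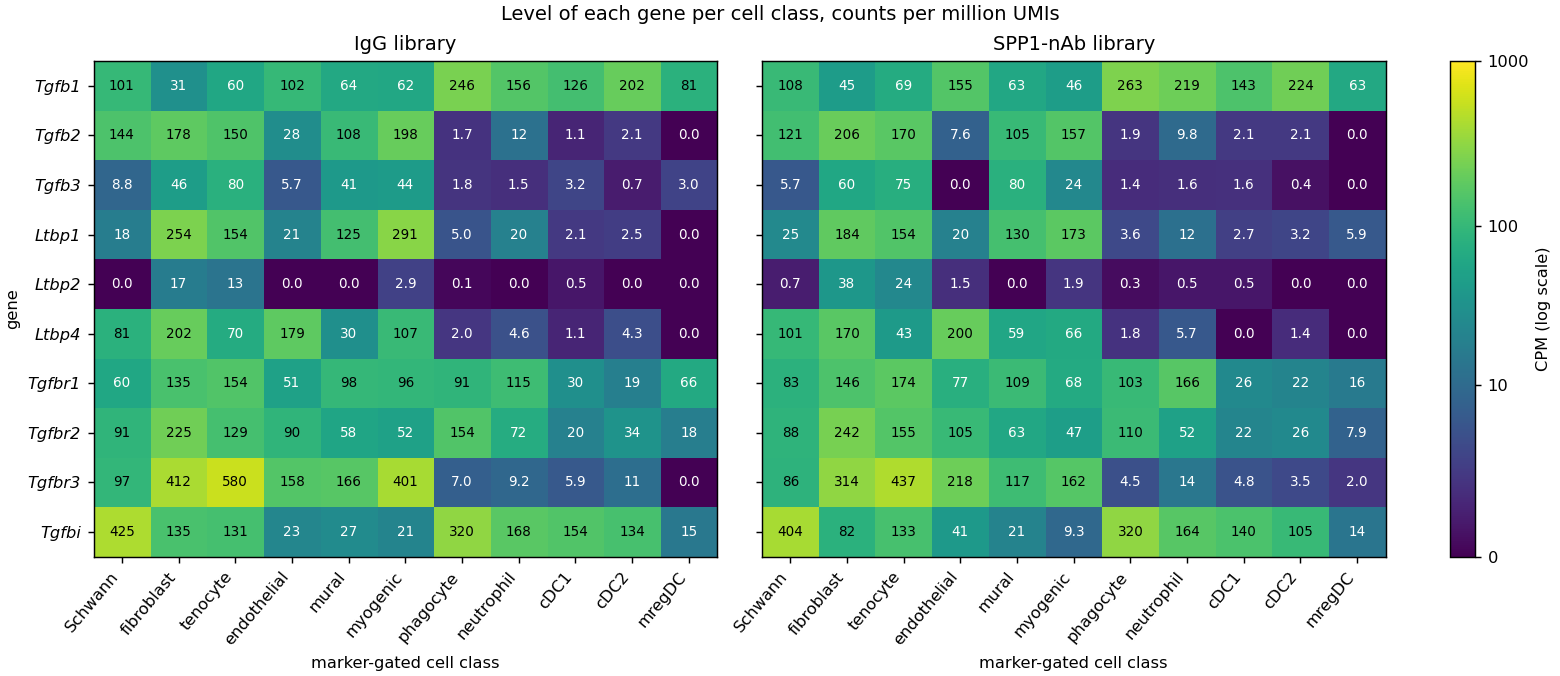
Level of each of the 10 genes (rows) in each of the 11 marker-gated classes (columns), in CPM on a log color scale, with the IgG library on the left and the SPP1-nAb library on the right. Numbers in the squares are CPM. *Tgfb1* is highest in phagocytes (246 and 263 CPM), where *Tgfb2* is near 0 (1.74 and 1.87 CPM).

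The 3 binding proteins were low in phagocytes and differed in the classes where they were highest. *Ltbp1* (chr17:75312519-75699507), which tethers latent TGF-β to fibrillin and fibronectin, had 291 CPM [269, 316] and 173 CPM [158, 190] in myogenic cells and 254 CPM [246, 263] and 184 CPM [175, 194] in fibroblast-like cells. Myogenic cells were the highest class in IgG and fibroblast-like cells in SPP1-nAb. *Ltbp2* (chr12:84829986-84923306) does not bind latent TGF-β as the others do and is a microfibril protein of elastic tissue. It was low everywhere, with 17.0 CPM [14.9, 19.3] and 38.2 CPM [34.1, 42.7] in fibroblast-like cells and 13.1 and 24.4 CPM in tenocyte-like cells, and at most 2.85 CPM in the other 9 classes. *Ltbp4* (chr7:27004086-27037117), known for its preference for the product of *Tgfb1* and for elastic fiber assembly, was found both in fibroblast-like cells (202 and 170 CPM) and in endothelial-like cells (179 and 200 CPM). Schwann-like cells had 81.4 CPM [65.7, 99.7] and 101 CPM [85.2, 119] of *Ltbp4*, against 17.5 and 25.1 CPM of *Ltbp1* and 0 and 1 UMI of *Ltbp2*. Phagocytes, which held most *Tgfb1* UMIs, had between 0.121 and 5.04 CPM of the 3 binding proteins. *Nrros*, which tethers latent TGF-β on myeloid cells, is not one of these 3 and is given with the pathway genes below.

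The signaling receptors were measured in both stromal cells and leukocytes. *Tgfbr1* (chr4:47353134-47414931), the type I receptor kinase, was highest in tenocyte-like cells in both libraries, at 154 CPM [137, 172] and 174 CPM [153, 199]. It was lowest among classes with at least 50 of its UMIs in cDC2, at 18.9 and 21.6 CPM. *Tgfbr2* (chr9:115913361-116004800), the type II receptor that binds the ligand, was highest in fibroblast-like cells, at 225 CPM [217, 233] and 242 CPM [232, 253]. Phagocytes had 154 CPM [150, 157] and 110 CPM [108, 113], and Schwann-like cells 91.0 and 87.6 CPM. The co-receptor betaglycan, *Tgfbr3* (chr5:107249402-107437623), which presents the second ligand to the type II receptor, followed a stromal pattern. It had 580 CPM [546, 615] and 437 CPM [402, 474] in tenocyte-like cells and 412 and 314 CPM in fibroblast-like cells, against 7.02 and 4.46 CPM in phagocytes.

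*Tgfbi* (chr13:56757336-56787375), an integrin-binding matrix protein named for its induction by TGF-β, was highest in Schwann-like cells. Its level there was 425 CPM [388, 465] and 404 CPM [371, 438]. At 2000 UMIs per cell, 49.0% and 52.8% of the Schwann-like cells had a UMI, with 69 and 25 cells of lower depth left out. Phagocytes had 320 CPM in both libraries, with intervals of [315, 325] and [316, 324]. Monocyte-type phagocytes, a subset defined below, had 451 CPM [438, 464] and 426 CPM [416, 437], with intervals that overlapped those of Schwann-like cells. Phagocytes, the largest class, nevertheless held 65.1% and 75.0% of all *Tgfbi* UMIs, and Schwann-like cells 2.00% and 1.65%. Across the 10 genes, the class of highest level was the same in both libraries for 6 (*Tgfb1*, *Ltbp2*, *Tgfbr1*, *Tgfbr2*, *Tgfbr3* and *Tgfbi*), and for 65.1% of 11879 genes with at least 10 CPM in a class of both libraries.

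**Figure D2:**
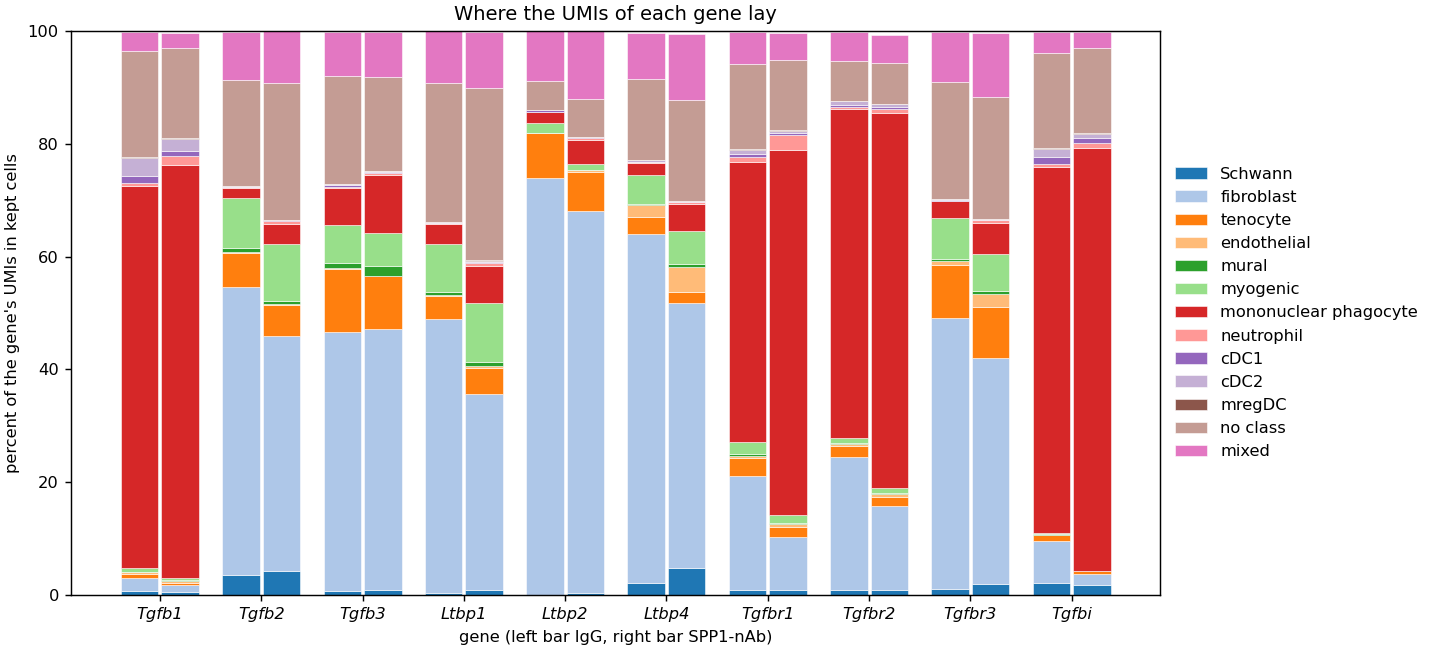
Percent of each gene's UMIs in kept cells (vertical axis) that lay in each class, in cells with no class and in mixed cells, with the IgG library as the left bar and the SPP1-nAb library as the right bar of each gene. Phagocytes hold 67.7% and 73.4% of the *Tgfb1* UMIs, and fibroblast-like cells 51.1% and 41.7% of the *Tgfb2* UMIs. Of the kept cells, phagocytes are 46.7% and 55.8% and fibroblast-like cells 10.6% and 4.18%.

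Within Schwann-like cells, *Tgfb2* and *Ltbp4* were lower in cells with a UMI of *Reln*, a secreted glycoprotein gene, than in cells without one. *Tgfb2* was 34.8 CPM [21.0, 54.4] and 50.4 CPM [35.5, 69.4] in *Reln*+ cells, but 244 CPM [206, 287] and 199 CPM [166, 236] in *Reln*- cells. Of the *Tgfb2* UMIs of *Reln*- cells, 5 cells held 30.8% and 31.3%. At 2000 UMIs per cell, 5.8% and 6.67% of *Reln*+ cells had a *Tgfb2* UMI, against 24.1% and 23.3% of *Reln*- cells. *Ltbp4* was 36.7 and 51.7 CPM in *Reln*+ cells against 122 and 157 CPM in *Reln*- cells. For both genes the intervals of the 2 sets did not overlap in either library. The share of all genes with such intervals was not computed, so these are descriptions. *Tgfb1* changed order between the libraries, with 78.9 and 114 CPM in *Reln*+ cells against 122 and 102 CPM in *Reln*- cells, and its intervals overlapped. *Tgfbr1*, *Tgfbr2* and *Tgfbr3* did not separate in this way, with *Tgfbr2* at 95.4 and 89.8 CPM against 87.0 and 85.1 CPM. *Tgfbi* was 468 CPM [412, 529] and 452 CPM [405, 503] in *Reln*+ cells, and 386 CPM [338, 440] and 350 CPM [306, 398] in *Reln*- cells. The intervals of *Tgfbi* overlapped in the IgG library and lay just apart in the SPP1-nAb library. *Reln*+ cells were 160 of 365 Schwann-like cells in IgG and 192 of 368 in SPP1-nAb.

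Between the libraries, 68 of the 110 pairs of gene and class had at least 50 UMIs over both. Of these, 4 were at least 1.5-fold higher and 8 at least 1.5-fold lower in SPP1-nAb. Over all genes and the same classes, 6.50% of 74756 pairs were higher and 7.70% lower. Ratios are given as SPP1-nAb over IgG, on a log2 scale where so stated, with exact binomial intervals.

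In fibroblast-like cells all 10 genes were measured and 1 was past the fold in each direction, where 6.07% of 12175 genes were higher and 8.29% lower. *Ltbp2* was the gene that was higher, from 17.0 to 38.2 CPM, by 2.25-fold (log2 1.17 [0.92, 1.42]). It was also higher in tenocyte-like cells, from 13.1 to 24.4 CPM, by 1.86-fold (log2 0.89 [0.09, 1.71]). The tenocyte ratio rested on 25 and 32 UMIs, of which 5 cells held 52.0% and 37.5%. Of tenocyte-like cells thinned to 2000 UMIs, 2.04% [0.935, 3.83] and 2.55% [1.03, 5.19] had a *Ltbp2* UMI. *Tgfbi* was lower in fibroblast-like cells, from 135 CPM [128, 141] to 82.0 CPM [75.9, 88.5], which is 1.64-fold. The 3 ligands were each higher within the fold, with *Tgfb1* 1.43-fold, *Tgfb3* 1.32-fold and *Tgfb2* 1.16-fold, and each interval lay above 0. At 2000 UMIs per cell, the share of cells with a *Tgfb1* UMI was not higher, at 6.43% and 5.81%. The shares for *Tgfb3* (8.14% [7.07, 9.33] and 10.2% [8.41, 12.3]) and *Tgfb2* (24.1% [22.4, 25.9] and 26.4% [23.6, 29.2]) were higher, but their intervals overlapped. *Ltbp1* was 1.38-fold and *Tgfbr3* 1.31-fold lower, while *Tgfbr1* and *Tgfbr2* both differed by 1.08-fold. In tenocyte-like cells 1 of 10 genes was higher (background 5.09%) and 1 lower (5.65%), the latter being *Ltbp4*, from 69.8 to 42.7 CPM.

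Fibroblast-like cells were a mixture whose makeup, by the subset gates, differed between the libraries. These gates were read without thinning, and median UMIs were 5032 (IgG) and 7914 (SPP1-nAb). The part of depth in the makeup was not tested. Cells of a progenitor type, with at least 2 of *Smoc2*, *Cxcl14*, *Hmcn2* and *Col15a1*, were 60.0% of the class in IgG and 70.6% in SPP1-nAb, and cells of an adventitial type, with at least 2 of *Pi16*, *Dpp4*, *Sema3c* and *Cd55*, were 23.3% and 13.8%. *Tgfb2* went opposite ways in these subsets. It was 163 CPM [154, 172] and 220 CPM [208, 232] in progenitor-type cells, but 218 CPM [202, 235] and 125 CPM [105, 147] in adventitial-type cells. The log2 ratios were 0.43 [0.32, 0.54] and -0.81 [-1.08, -0.54], and this difference was not tested. In adventitial-type cells *Tgfb1* (27.1 and 18.7 CPM) and *Tgfb3* (35.6 and 33.0 CPM) were also lower in SPP1-nAb, with intervals that overlapped. Both were higher in progenitor-type cells (32.1 and 47.9 CPM, and 45.8 and 59.3 CPM). *Ltbp1* was highest in adventitial-type cells, at 430 and 456 CPM, against 203 and 141 CPM in progenitor-type cells. *Tgfbr2* was likewise higher in adventitial-type cells, at 371 and 413 CPM against 182 and 216 CPM. *Ltbp2* was lowest in adventitial-type cells, at 3.15 and 9.81 CPM, against 18.8 and 43.0 CPM in progenitor-type cells and 29.7 and 41.8 CPM in cells of neither type. *Tgfbi* was lower in SPP1-nAb in both subsets, by 0.80 and 0.68 on the log2 scale, and in fibroblast-like cells of neither type.

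**Figure D3:**
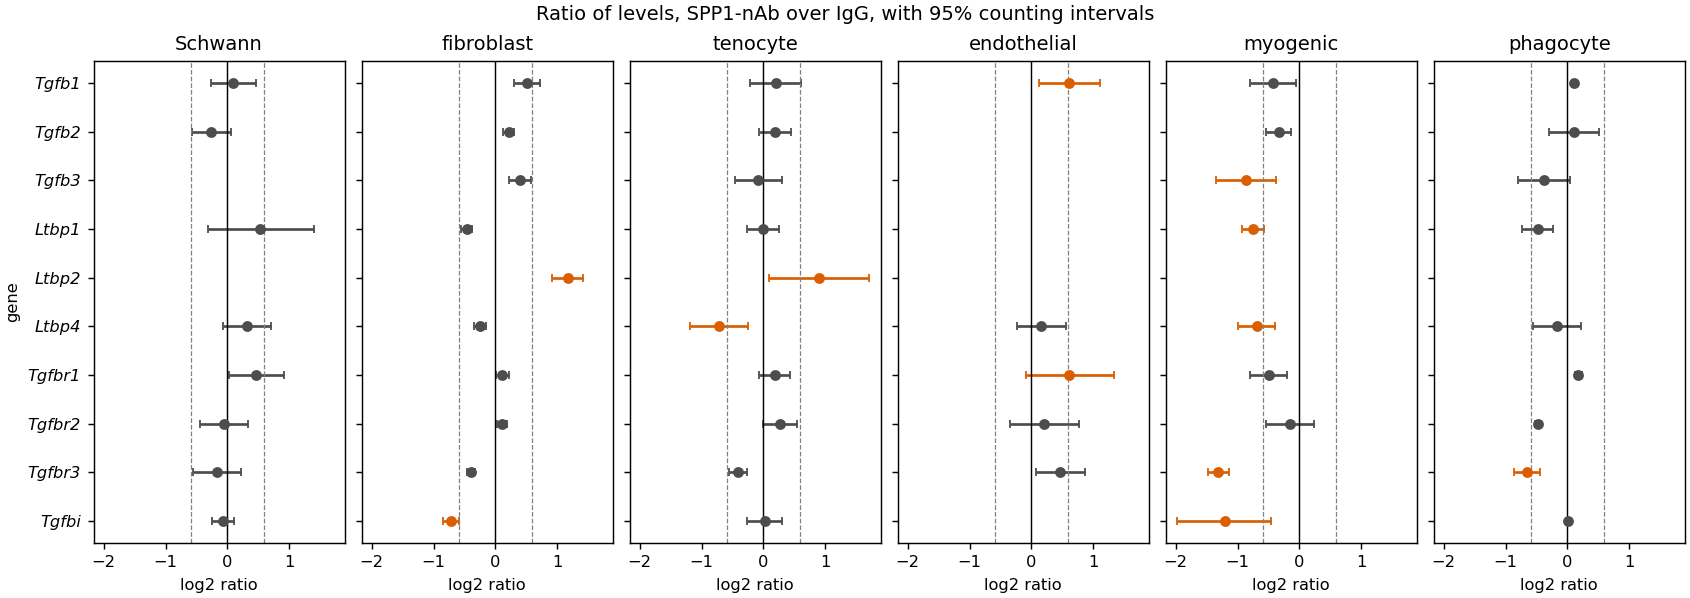
Log2 ratio of levels, SPP1-nAb over IgG (horizontal axis), for each gene (vertical axis) with at least 50 UMIs in 6 of the classes, with 95% counting intervals. Dashed lines mark 1.5-fold and orange points lie past it. Orange points sit on the left for 5 of 9 genes in myogenic cells, and no Schwann-like point is orange.

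Myogenic cells had more genes past the fold than any other class, and all were lower. *Tgfbr3* was 401 CPM [375, 429] (IgG) and 162 CPM [146, 178] (SPP1-nAb), a 2.48-fold difference (log2 -1.31 [-1.49, -1.14]). *Ltbp1* was 1.68-fold, *Tgfb3* 1.82-fold and *Ltbp4* 1.61-fold lower. *Tgfbi* had only 45 and 24 UMIs and was 2.30-fold lower. These 5 were among 9 genes measured, where 11.5% of 7872 genes were lower and 12.1% higher, and the median of the 9 was -0.69 against -0.03 for all genes. *Tgfb1*, *Tgfb2* and *Tgfbr1* were lower within the fold, and *Tgfbr2* was 51.8 and 46.6 CPM. The directions of *Tgfb1* and *Tgfb2* were not kept, since the log2 ratio of *Tgfb1* became 0.44 with at least 2 of 6 markers and 0.14 with the mean of per-cell CPM, where that of *Tgfb2* became 0.11. Median UMIs of myogenic cells were 2689 (IgG) and 4374 (SPP1-nAb), and *Myog* was read without thinning. Cells with a UMI of *Myog*, the gene of a factor of differentiating myoblasts, were 2.45% of the myogenic cells in IgG and 9.20% in SPP1-nAb. Without them, *Tgfbr3* remained 417 and 203 CPM, or -1.04 on the log2 scale, and *Ltbp1*, *Tgfb3* and *Tgfbi* remained past the fold, but *Ltbp4* did not, at -0.41. The summed level of the 6 fibroblast markers in myogenic cells was 408.5 CPM (IgG) and 194.6 CPM (SPP1-nAb), with 2 of 6 markers higher, and its part in these ratios was not tested. *Tgfbi* reversed, to 0.28, when cells with 2 markers of another lineage were left out, and the number of lower genes then was 3.

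In endothelial-like cells 5 genes were measured and 2 were past the fold, where 8.49% of 4240 genes were higher and 6.04% lower. *Tgfb1* was 102 CPM [76.5, 133] and 155 CPM [126, 188], or 1.52-fold higher. *Tgfbr1* was 50.9 and 77.4 CPM, but its interval included 0, at -0.10 to 1.33 on the log2 scale. The *Tgfb1* difference was not kept when a cell needed 4 of 6 endothelial markers, at -0.036. The 6 phagocyte markers summed to 101.8 CPM (IgG) and 174.5 CPM (SPP1-nAb) in endothelial-like cells, and their part was not tested. *Tgfbr3* was 158 and 218 CPM and *Ltbp4* 179 and 200 CPM.

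In mononuclear phagocytes 9 genes were measured, 0 were past the fold upward (background 3.66% of 13947 genes) and 1 downward (11.6%). *Tgfb1* was 1.07-fold and *Tgfbr1* 1.13-fold higher, and *Tgfbi* did not differ beyond a log2 interval of -0.03 to 0.03. The lower gene was *Tgfbr3*, from 7.02 to 4.46 CPM, and the 6 fibroblast markers in the same cells went from 42.9 to 24.3 CPM, with 0 of 6 higher. The part of these markers in the *Tgfbr3* ratio was not tested. *Tgfbr2* was 1.39-fold lower in the class as a whole. It was highest in resident-type macrophages, with at least 2 of *Lyve1*, *Cd209f*, *Folr2* and *Cd163*, at 275 CPM [265, 286] and 244 CPM [232, 257]. It was lower in inflammatory-type cells (82.5 and 83.3 CPM), lipid-handling cells (110 and 96.7 CPM) and monocyte-type cells (86.0 and 72.5 CPM). Inflammatory-type cells had at least 2 of *Arg1*, *Cxcl3*, *Il1a* and *Spp1*, so the gene of the neutralized protein was part of their gate. Lipid-handling cells had at least 2 of *Gpnmb*, *Atp6v0d2*, *Fabp5* and *Syngr1*, and monocyte-type cells at least 2 of *Ly6c2*, *Ccr2*, *Plac8* and *Vcan*. Resident-type cells were 21.2% of phagocytes in IgG and 9.09% in SPP1-nAb. Within these subsets and cells of no subset, the log2 ratio of *Tgfbr2* ranged from -0.39 to 0.01, against -0.48 for all phagocytes. The subset gates were read without thinning, and the part of subset makeup in the ratio of the class was not tested. *Tgfbi* was highest in monocyte-type cells, at 451 and 426 CPM, and lowest in lipid-handling cells, at 205 and 235 CPM.

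**Figure D4:**
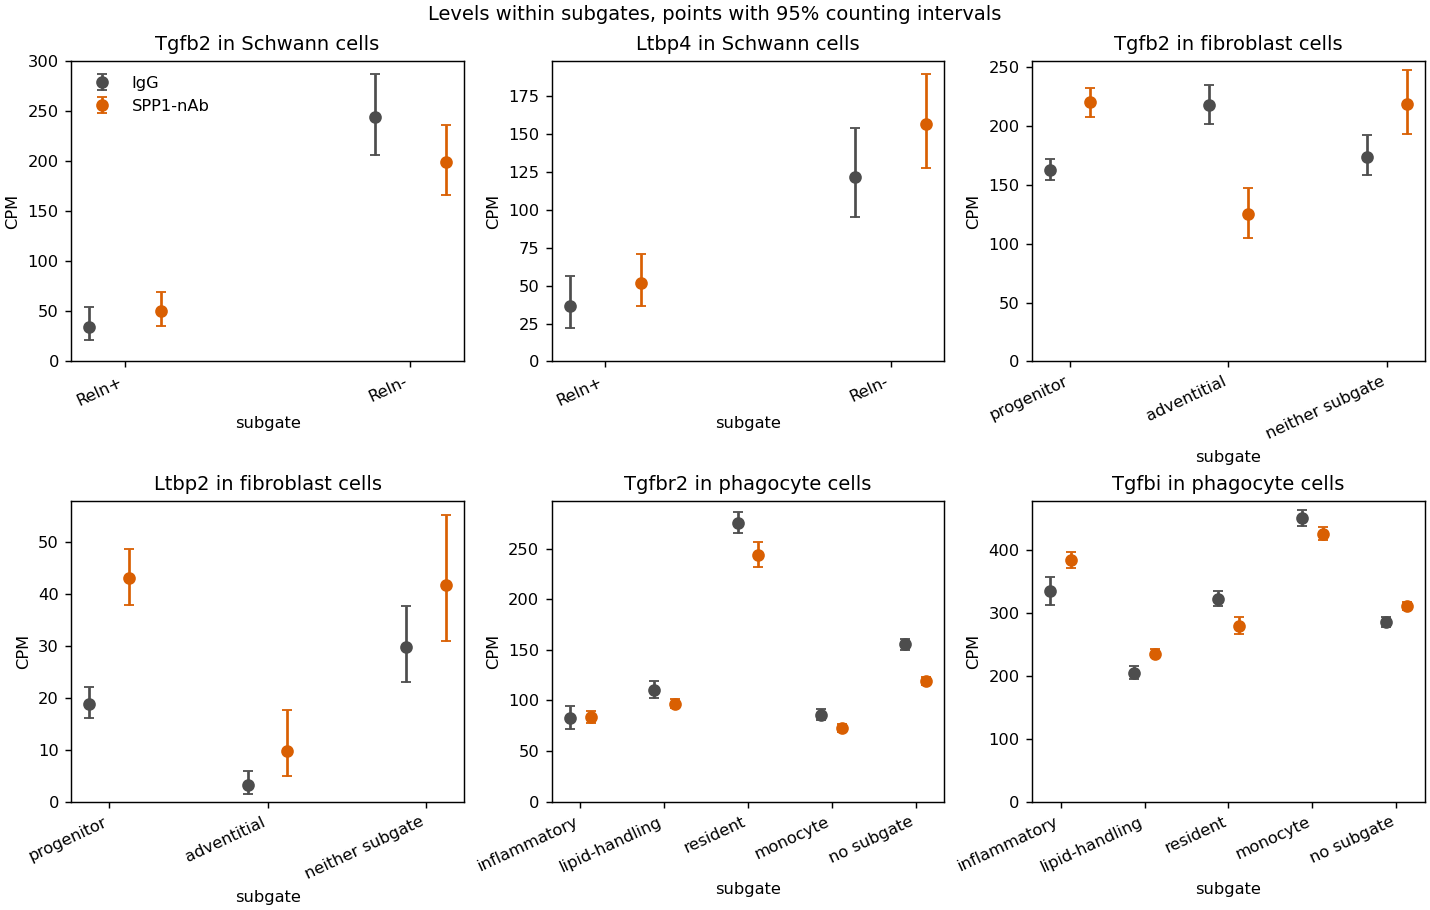
Level in CPM (vertical axis) of a gene within subsets of a class (horizontal axis), for IgG (gray) and SPP1-nAb (orange), with 95% counting intervals. *Tgfb2* is higher in *Reln*- than in *Reln*+ Schwann-like cells of both libraries (244 and 199 against 34.8 and 50.4 CPM), and its order between libraries differs between progenitor-type and adventitial-type fibroblast-like cells.

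Schwann-like cells had 8 measured genes and 0 past the fold in either direction, where 4.35% of 6777 genes were higher and 4.0% lower. With at most 562 UMIs of any of the genes in a library, the intervals were wide. *Tgfbr1* was 60.4 CPM [47.0, 76.4] and 83.3 CPM [68.8, 99.9], with a log2 ratio of 0.46 [0.02, 0.92], which became -0.28 when 4 of 6 Schwann cell markers were needed. *Tgfb2* was -0.26 [-0.58, 0.06], and *Tgfbi* was bounded most tightly, at -0.07 [-0.25, 0.10]. In neutrophils, where 4 genes were measured and 0 were past the fold (11.6% of genes higher, 5.77% lower), *Tgfb1* was 1.40-fold and *Tgfbr1* 1.44-fold higher. In 4 further classes 0 of 13 pairs were past the fold. The shares of all genes that were higher and lower were 4.67% and 5.60% in type 1 conventional dendritic cells (cDC1), 5.14% and 5.16% in cDC2, 8.15% and 8.06% in mural cells, and 9.88% and 5.50% in mature regulatory dendritic cells.

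Other genes of the pathway, in 4 fixed lists, are named for Schwann-like, fibroblast-like, endothelial-like and phagocyte cells. The lists were drawn up with earlier results of these data known. Their counts, beside the shares over all genes, are therefore descriptions. In fibroblast-like cells 6 of 16 target genes were higher (6.07% of all genes) and 1 was lower (8.29%), with a list median of 0.34 against -0.02 for all genes. *Tagln*, an actin-binding protein of contractile cells, was 19.6 and 46.7 CPM (2.39-fold). *Tnc*, the matrix glycoprotein tenascin C, was 109 and 246 CPM (2.26-fold), and *Lox*, which crosslinks collagen, 278 and 622 CPM (2.23-fold). *Igfbp3*, a carrier of insulin-like growth factors, was the gene that was lower, at 79.9 and 33.7 CPM. *Tnc* and *Lox* were higher in progenitor-type (log2 1.43 and 1.23), adventitial-type (1.66 and 0.75) and other fibroblast-like cells (0.53 and 0.90), whereas *Tagln* was higher in progenitor-type cells (2.31) and lower in cells of neither type (-0.58). The 6 tenocyte markers, 5 of them higher, summed to 418 CPM (IgG) and 660.9 CPM (SPP1-nAb) in fibroblast-like cells, and their part in these ratios was not tested.

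Of 15 latency and activation genes in fibroblast-like cells, 4 were higher and 0 lower, where 6.07% and 8.29% of all genes were. *Itgb6*, the β6 chain of an integrin that releases active TGF-β, was 8.06 and 35.0 CPM, or 4.35-fold higher (log2 2.12 [1.80, 2.45]). *Fbn2*, a fibrillin of the matrix fibers that hold latent complexes, was 2.02-fold and *Lrrc32*, which displays latent TGF-β on the cell surface, 1.89-fold higher. *Itgb6* was higher in progenitor-type cells (8.63 and 38.2 CPM) and in adventitial-type cells (9.44 and 29.4 CPM). Of 13 Smad genes and regulators, 2 were higher, the repressor *Tgif1* (36.1 and 60.5 CPM) and *Pmepa1*, a feedback inhibitor that binds Smads (338 and 558 CPM). None of 7 co-receptors and decoys, 0 in each direction, was past the fold.

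In phagocytes 5 of 14 latency and activation genes were higher and 0 lower, where 3.66% and 11.6% of all genes were. *Thbs1*, thrombospondin 1, which activates latent TGF-β, was 496 CPM (IgG) and 938 CPM (SPP1-nAb), or 1.89-fold (log2 interval 0.90 to 0.94). It was higher in each of the 4 phagocyte subsets, from 0.31 in inflammatory-type to 2.20 in resident-type cells on the log2 scale. *Itgb3* (0.385 and 1.04 CPM) and *Itgb6* (0.567 and 1.03 CPM), integrin β chains, were higher at levels near the smallest measured. *Nrros*, also measured in phagocytes, was within the fold, with a log2 ratio of -0.024 [-0.057, 0.009]. Of 15 target genes 2 were higher, *Fn1*, the gene of fibronectin (353 and 575 CPM), and *Tnc* (2.47 and 3.75 CPM). None of 13 Smad genes and regulators and none of 7 co-receptors, 0 in each direction, was past the fold.

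Endothelial-like cells had 5 of 7 latency and activation genes higher and 0 lower, where 8.49% and 6.04% of all genes were. The intervals of 2 of the 5 included 0. Among the others, *Thbs1* was 35.8 and 141 CPM (3.94-fold), *Furin*, the protease that cleaves the propeptide, 37.7 and 72.8 CPM, and *Nrros*, which tethers latent TGF-β on myeloid cells, 43.3 and 72.8 CPM. *Nrros* reversed, to -0.10, without the cells that had 2 markers of another lineage, where the log2 ratio of *Thbs1* was 0.71 in place of 1.98. Target genes were split, with *Fn1* (58.4 and 237 CPM) and *Ccn2*, a matricellular protein (24.5 and 60.7 CPM), higher, and *Igfbp3* (99.9 and 62.2 CPM) and *Id1*, an inhibitor of differentiation factors (439 and 284 CPM), lower. The log2 ratio of *Fn1* ranged from 0.92 to 2.37 over the alternatives, and that of *Ccn2* became 0.39 with at least 2 of 6 markers. The phagocyte markers, 5 of 6 of them higher in these cells (101.8 and 174.5 CPM in sum), moved with *Thbs1* and *Fn1*, and their part was not tested. *Zfyve9*, the gene of a Smad anchor, was 99.9 and 51.6 CPM, the only one of 10 Smad genes and regulators past the fold. In Schwann-like cells, *Fn1* was 34.1 and 97.6 CPM (2.86-fold), the only one of 12 target genes that was higher, and *Col1a1*, a collagen chain, was 293 and 190 CPM, the only one lower, where 4.35% and 4.0% of all genes were higher and lower. The log2 ratio of *Fn1* was 1.52, or 0.65 when 4 of 6 markers were needed. In the same cells the summed markers of fibroblasts went from 115.5 to 191.7 CPM (3 of 6 higher), of phagocytes from 65.6 to 89.0 CPM (3 of 6) and of neutrophils from 5.25 to 71.1 CPM (3 of 6), and their part was not tested. *Fn1* was higher in both *Reln*+ (20.2 and 57.2 CPM) and *Reln*- cells (46.8 and 143 CPM). Of 10 Smad genes and regulators 1 was lower (*Zfyve9*, 66.5 and 43.1 CPM), and 0 of 9 latency genes and 0 of 3 co-receptors were past the fold. Of the target genes in myogenic cells, 1 of 15 was higher and 4 were lower (median -0.20), where 12.1% and 11.5% of all genes were. In tenocyte-like cells 2 of 16 were higher and 2 lower (median -0.15), beside 5.09% and 5.65%. Mural cells had 1 of 11 higher and 3 lower (8.15% and 8.06%), and neutrophils 3 of 9 higher and 0 lower (11.6% and 5.77%). Of 3 measured in cDC1, 2 were higher and 0 lower (4.67% and 5.60%). None was past the fold of 5 in cDC2 (5.14% and 5.16%) or of 2 in mature regulatory dendritic cells (9.88% and 5.50%).

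**Figure D5:**
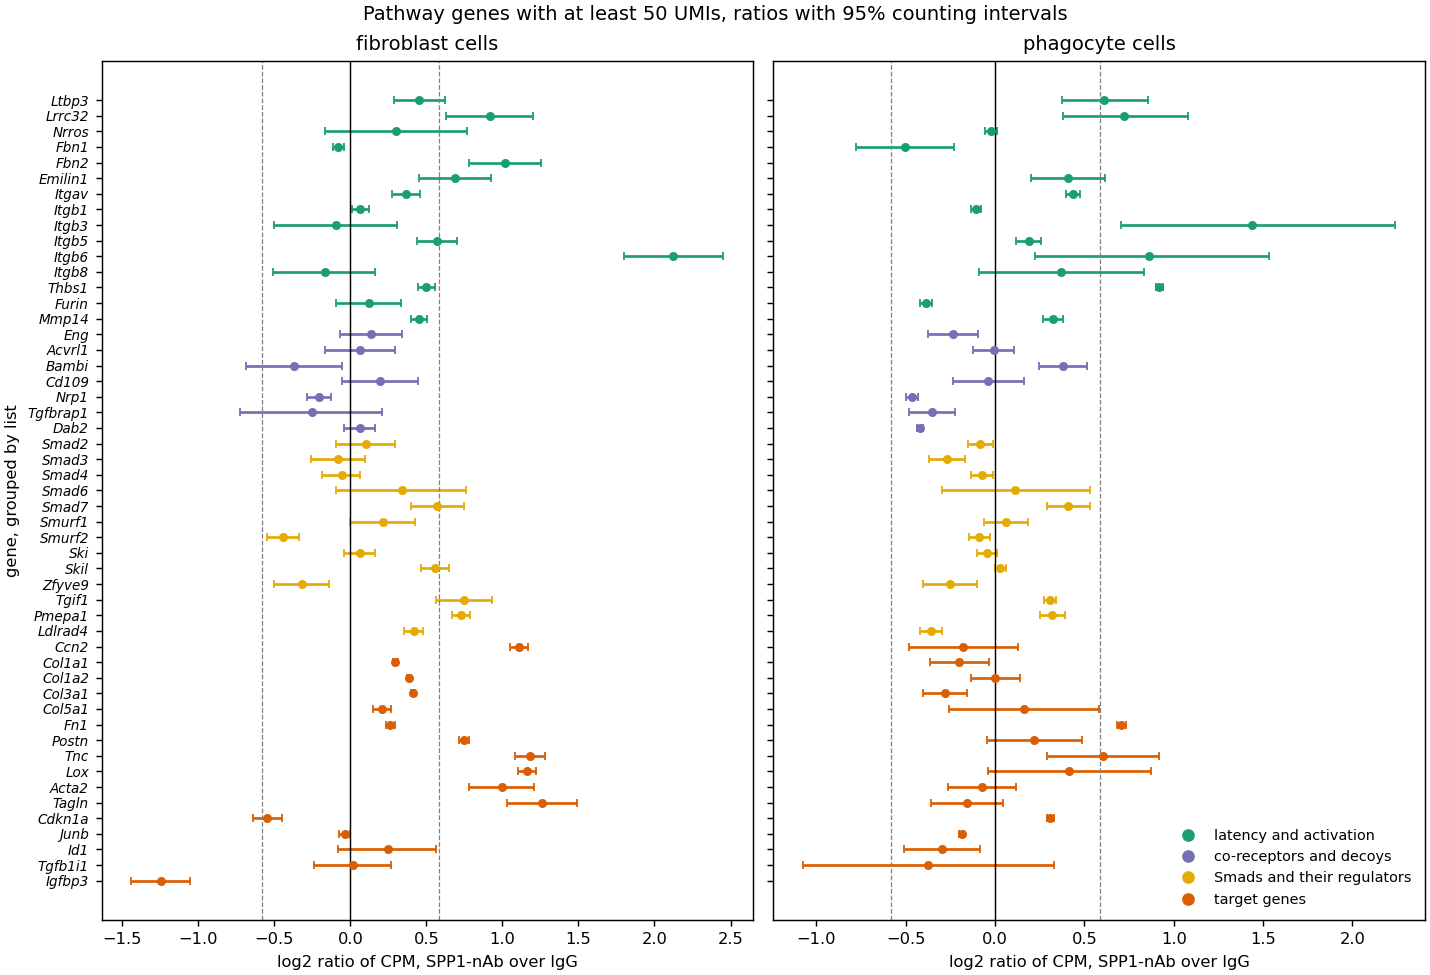
Log2 ratio of levels, SPP1-nAb over IgG (horizontal axis), of the genes of the 4 pathway lists with at least 50 UMIs (vertical axis) in fibroblast-like cells (left) and phagocytes (right), with 95% counting intervals; colors mark the lists and dashed lines 1.5-fold. In fibroblast-like cells *Itgb6* lies at 2.12 and *Igfbp3* at -1.25.

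The genes of most similar distribution were sought over 22 points, the 11 classes in both libraries, among 11779 genes. Classes recur in both libraries, so the points are not independent and the correlations, on log2(CPM + 1), are descriptions. *Tgfb2* was most like *Casc4* (r = 0.990), *Camk2n1* and *Sspn*, a member of the dystrophin complex. *Ltbp2* was most like the matrix gene *Fbln1* (0.970), *Sfrp2* and *Mfap4*, and *Ltbp4* like the basement membrane proteoglycan gene *Hspg2* (0.978), *Wwtr1* and *Pxdn*. *Tgfbr3* was most like *Nfib* (0.981), *Ppic* and *Parva*, *Ltbp1* like *Rbms3* (0.975), *Sobp* and *Rgma*, and *Tgfb3* like *Smarca1* (0.969), *Pcdh18* and *Aldh1a1*. The genes found in both stroma and leukocytes had looser partners. *Tgfb1* was most like the Fc receptor gene *Fcgr2b* (0.897), *Abr* and *Fem1c*, *Tgfbr1* like the Smad repressor *Ski* (0.878), *Timp2* and *Eea1*, *Tgfbr2* like *Timp2* (0.920), *Rbms1* and *Mon2*, and *Tgfbi* like *Lpcat2* (0.860), *Tmem268* and *Tmed10*.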

How the data were processed

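Cells of the IgG and SPP1-nAb muscles were profiled by droplet-based scRNA-Seq. The authors deposited counts of UMIs per gene and barcode, whole numbers without normalization or removal of ambient RNA. Their processing notes name Cell Ranger 8.0.0 and GRCm39 and the file headers 9.0.1. Their methods also name GRCm38, so the build of the counting is not settled. Gene coordinates were taken by Ensembl identifier from GENCODE M39 (GRCm39), which holds 31674 of 32287 identifiers. The promoter table, of another build, held 8 of the 10 genes, and sequences were not compared with the counts.

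Cells were gated per cell, with no clustering, by 6 markers per class (at least 3) and 4 per subset (at least 2). The gates were read without thinning, and the part of depth in the sizes of classes and subsets was not tested. Doublets were treated only by leaving out cells that passed gates of different lineages. Merged cells were used to check this gate, and the ratio intervals were tested on simulated counts. UMIs were summed per class and library, divided by all UMIs of those cells and multiplied to CPM. Ratios needed 50 UMIs over both libraries, and 1.5-fold was the size reported. Shares were computed after hypergeometric thinning to 2000 UMIs. With 1 library per condition no p-value was computed.

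The 10 genes, gates and lists were chosen with earlier results of these data known. Pathway genes were named where they were past 50 UMIs and 1.5-fold in the 4 classes, at most 3 per list and direction, ordered by size. *Tnc* and *Lox* within subsets, and subset values generally, were chosen after values were seen. Similar genes were the 3 highest by Pearson correlation, gate markers left out. Alternatives changed the number of markers, mixed cells, filters, averaging, free RNA, thresholds and thinning. Python 3.11.15, numpy 2.4.6, scipy 1.17.1, pandas 2.3.3 and matplotlib 3.10.9 were used.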

Additional observations from a re-analysis of the deposited data

Results flagged for a closer look

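Genes were singled out where the counting intervals of 2 classes, or of 2 subsets of a class, excluded 0 on opposite sides and the log2 ratios (SPP1-nAb over IgG) differed by at least 1. With 1 library per condition, none of these differences between classes was tested. *Tgfb2* was 0.43 in progenitor-type and 0.33 in other fibroblast-like cells but -0.81 in adventitial-type cells. *Tgfbr3* was 0.47 in endothelial-like cells, -1.31 in myogenic cells and -0.66 in phagocytes. *Tgfb1* was 0.61 in endothelial-like and -0.43 in myogenic cells, but became -0.036 in the former with at least 4 of 6 markers and 0.44 in the latter with at least 2. *Tgfb3* was 0.40 in fibroblast-like and -0.86 in myogenic cells. *Tgfbr1* was 0.53 in neutrophils and -0.50 in myogenic cells.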

How the results depend on the processing

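No paired analysis was possible because each condition had 1 library, and none could be left out. Over 9 alternatives that recompute levels, 1956 of the values of 231 log2 ratios stayed within their counting intervals, 115 lay outside and 4, of ratios past the fold, reversed. Subtraction of free RNA was not applied to phagocytes, so under that alternative their ratios stayed within by construction. The sign changed in 116 values, and in 8, of 6 ratios, where the interval excluded 0. Those within the fold were *Tgfb1* (0.44 with at least 2 of 6 markers, 0.14 with per-cell means) and *Tgfb2* (0.11 with per-cell means) in myogenic cells and *Tgfbr1* in Schwann-like cells (-0.28 with at least 4). *Tgfbi* in myogenic cells became 0.40 with at least 2 of 6 markers and 0.28 without cells that had 2 markers of another lineage, an alternative chosen after seeing the data, which also took *Nrros* in endothelial-like cells to -0.10. *Tgfb1* in endothelial-like cells became -0.036 with at least 4 of 6 markers. The causes were not tested. Genes lower in myogenic cells numbered 5, but 2 with at least 2 of 6 markers, 3 without cells with 2 markers of another lineage, 2 with the mean of per-cell CPM and 2 at a fold of 2. Over all classes, 8 pairs were lower, but 4 with per-cell means and 2 at a fold of 2, and 4 were higher, but 9 with at least 20 UMIs, by construction, and 1 at a fold of 2. The 4 latency genes higher in fibroblast-like cells became 2 at a fold of 2, while target genes higher there numbered 6, or 4 at a fold of 2. *Ltbp2* in fibroblast-like cells ranged from 1.08 to 1.58 over the alternatives and *Tgfbr3* in myogenic cells from -1.32 to -0.83. Pairs with a UMI in at least 5% of cells of both libraries numbered 62, 45 at 1000 UMIs and 66 without thinning. Total UMIs were fewest in mural cells, mature regulatory dendritic cells and endothelial-like cells, and the median per cell was lowest in neutrophils and endothelial-like cells.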

Other observations

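Classes too small to be compared also held the genes. Plasmacytoid dendritic cells, 25 in IgG and 37 in SPP1-nAb, had 207 CPM [126, 319] and 297 CPM [219, 392] of *Tgfb1* and 176 CPM [102, 282] and 200 CPM [138, 281] of *Tgfbr1*, with 0 UMIs of *Tgfb2* in both libraries. Nerve-sheath-like cells, 15 and 8 by their *Cldn1* and *Foxd1* gate, had 262 CPM [131, 470] and 426 CPM [233, 714] of *Ltbp4* and 382 CPM [218, 620] and 365 CPM [189, 637] of *Tgfbi*, with 0 UMIs of *Tgfb1* in both, which allows up to 88.0 and 112 CPM. Mixed cells were about 2.30% and 2.07% of cells and held 8.57% and 9.12% of the *Tgfb2* UMIs. They held similar shares of *Ltbp1* (9.09% and 9.96%) and *Tgfbr3* UMIs (8.98% and 11.4%), but 3.4% and 2.68% of *Tgfb1* UMIs. A share of cells is not a share of UMIs, since cells differ in depth.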
